A study of Mus musculus with 12 samples.

Results

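The complement genes C9, C8a, C8b, C8g, C6, Hc, C3, Cfb and Cfi were followed in whole mouse liver, where hepatocytes are the known main source of the plasma proteins they encode. They were taken by symbol, as 9 of the 55401 genes of the deposited table, and all 9 passed the filter on low counts. C9 was picked because it differed between the untreated genotypes in these same libraries. Every difference between untreated genotypes is therefore described without a test, as is every difference of C9 that uses the untreated libraries.

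The livers came from male mice aged 7 to 10 weeks, in 4 groups of 3 libraries. FBXL5ΔDC mice (Cd11c-Cre with Fbxl5 F/F) were sampled 6 h after intraperitoneal acetaminophen, control mice (Fbxl5 F/F without Cre) likewise at 6 h, and both genotypes untreated, here called 0 h. All mice carried the floxed Fbxl5 alleles, and Cre was driven from the promoter of Cd11c (Itgax), a gene used mainly by dendritic cells. FBXL5 senses iron and directs the degradation of iron regulatory protein 2, and acetaminophen in overdose injures the liver. The labels give 300 or 500 mg/kg without assigning a dose to these mice, which had fasted for 16 h before injection and were then fed. Fasting of the 0 h mice is not stated. Acetaminophen therefore cannot be told apart from the fast, the feeding or the injection in any difference between 6 h and 0 h. The labels do not say whether littermates were shared between groups, so p-values measure only the spread between these samples.

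Libraries held between 67173096 and 72512319 counts and between 19203 and 21405 detected genes, and the 9 complement genes made up 1% to 1.46% of all counts. Levels are given as CPM, counts set against the scaled library size. Scaling factors (TMM) ran from 0.855 to 1.14, and at 0 h they were 0.958 to 0.965 in FBXL5ΔDC livers and 1.04 to 1.10 in control livers. Fbxl5 itself was at 21.4, 21.8 and 12.5 CPM in FBXL5ΔDC livers and 13.3, 19.2 and 15 CPM in control livers at 6 h, and at 10.3, 19.8 and 21.4 CPM in FBXL5ΔDC livers and 20.7, 22.0 and 17.6 CPM in control livers at 0 h. Itgax did not pass 0.584 CPM in any library, so whole liver could not check a deletion in Cd11c-expressing cells. The hepatocyte markers were high, with a summed level of at least 67774 CPM for the 6 markers found.

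Complement is a chain of plasma proteins that marks targets and punches holes in membranes. C3 is cleaved by convertases, among them the alternative pathway convertase that carries factor B (Cfb), while factor I (Cfi) cuts the active fragment of C3 and so ends the reaction. Cleaved C5 (Hc in the mouse) binds C6 and C7, then the C8 trimer of C8a, C8b and C8g, and finally many copies of C9, which close the ring of the membrane attack complex. The liver supplies most of these proteins to blood, and several are acute phase proteins whose transcription rises with cytokines through factors such as C/EBP and STAT3.

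The upstream sequences of C9, Hc and C6 are shown because Hc had the level pattern most like that of C9 and C6 was the member with a called change. They are the 250 bases before the RefSeq start on GRCm38.p6, 5′ to 3′ on the gene's strand, with capitals at matches to the motifs searched.
C9 (chr15:6445096-6445345, plus strand): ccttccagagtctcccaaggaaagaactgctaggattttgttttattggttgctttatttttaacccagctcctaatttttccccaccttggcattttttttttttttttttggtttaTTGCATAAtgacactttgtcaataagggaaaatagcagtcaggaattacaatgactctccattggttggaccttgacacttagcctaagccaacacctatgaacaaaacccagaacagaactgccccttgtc
Hc (chr2:35061413-35061662, minus strand): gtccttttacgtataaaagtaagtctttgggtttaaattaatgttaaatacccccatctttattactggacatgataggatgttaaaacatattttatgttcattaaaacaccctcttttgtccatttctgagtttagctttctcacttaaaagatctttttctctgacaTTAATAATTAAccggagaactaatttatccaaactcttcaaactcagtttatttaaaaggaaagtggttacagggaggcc
C6 (chr15:4726960-4727209, plus strand): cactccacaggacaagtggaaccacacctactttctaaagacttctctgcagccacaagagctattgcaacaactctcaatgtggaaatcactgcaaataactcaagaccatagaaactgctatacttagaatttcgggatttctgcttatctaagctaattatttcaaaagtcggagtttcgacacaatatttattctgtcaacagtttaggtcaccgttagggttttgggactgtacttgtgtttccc

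Both strands were searched for 3 motifs in the full RefSeq windows, from 250 bases before to 50 after the start. The C/EBP motif TTGCNNAA, found in 10.8% of all 32851 windows, was present in C9 at bases -132 to -125 and in C3 at -45 to -38. The palindromic HNF1 core TTAATNATTAA, in 0.122% of windows, was present in Hc at -80 to -70. The STAT motif TTCNNNGAA, in 8.30% of windows, was present in C8a at -228 to -220. The windows of C8b, C8g and C6 held none of them, and no matches overlapped. A match is a description of the letters and not evidence of binding. Windows were found for 7 of the 9 genes.

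C9 (ENSMUSG00000022149.18, GRCm38 chr15:6445327-6498751, plus strand), the pore-forming last component, was highest in untreated FBXL5ΔDC livers. Its level was 492, 445 and 395 CPM in FBXL5ΔDC livers and 297, 432 and 345 CPM in control livers at 6 h, and 535, 587 and 549 CPM in FBXL5ΔDC livers and 292, 281 and 303 CPM in control livers at 0 h. All FBXL5ΔDC libraries at 0 h lay above all others, and the 3 control libraries at 0 h spanned only 281 to 303 CPM. The means were 557 ± 26.8 CPM in FBXL5ΔDC and 292 ± 10.9 CPM in control livers at 0 h (SD, n = 3 each), a log2 difference of 0.93 (SE 0.14), which is what the gene was picked for. Fewer cells of a type and less RNA per cell cannot be told apart in whole liver, here or below.

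After acetaminophen the 2 genotypes lay closer together in C9. FBXL5ΔDC livers averaged 444 ± 48.4 CPM at 6 h against 557 ± 26.8 CPM at 0 h, a log2 difference of -0.33 (SE 0.14), with all libraries at 6 h below those at 0 h. Control livers averaged 358 ± 68.4 CPM at 6 h against 292 ± 10.9 CPM at 0 h, a log2 difference of 0.30 (SE 0.14) that was 0.14 without replicate 2 at 6 h, and their libraries overlapped. The difference between these responses was -0.62 on the log2 scale (SE 0.20), again without a test because it holds the contrast C9 was picked on.

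The comparison of genotypes at 6 h used other libraries and could be tested. C9 was 444 ± 48.4 CPM in FBXL5ΔDC and 358 ± 68.4 CPM in control livers, a log2 difference of 0.31 (SE 0.14, 95% interval 0.01 to 0.61), which did not pass the test (edgeR, adjusted p = 0.208). The libraries overlapped, since the FBXL5ΔDC library at 395 CPM lay below the control library at 432 CPM. It was 0.19 without replicate 1 and 0.47 without replicate 2 of the control livers at 6 h. With library totals alone the difference was 0.08 (edgeR, adjusted p = 0.771), and that scaling lowered the median of all genes in this contrast by 0.22.

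**Figure D1:**
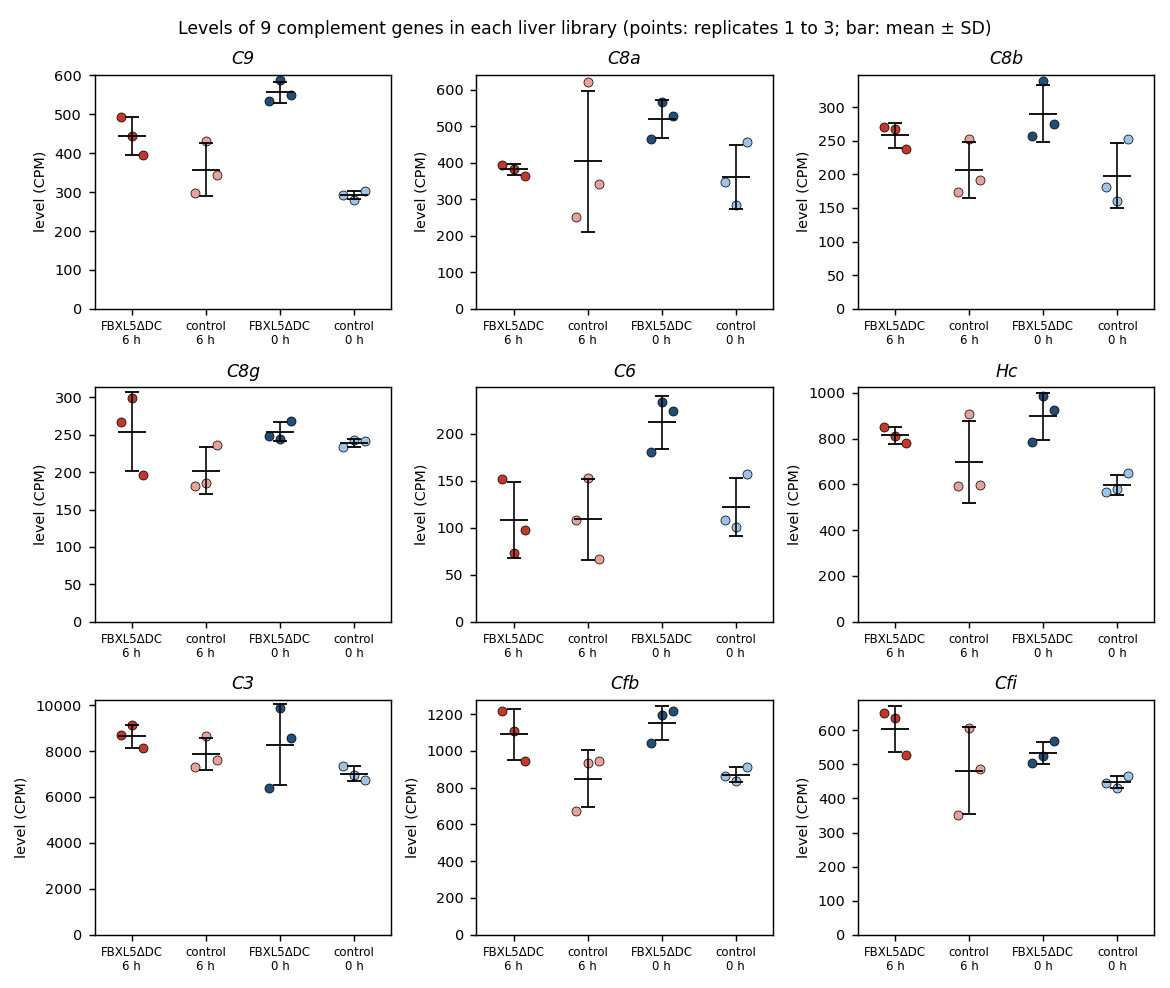
Level of each of the 9 genes in every library (vertical axis in CPM, starting at 0), with FBXL5ΔDC and control livers at 6 h and then at 0 h from left to right; points are replicates 1 to 3 and bars are mean ± SD. C9 stands at 535 to 587 CPM in FBXL5ΔDC and 281 to 303 CPM in control livers at 0 h, and the control libraries at 6 h are spread widely in most genes.

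Hc (ENSMUSG00000026874.10, chr2:34983331-35061438, minus strand) encodes C5, the source of the chemoattractant C5a and of the fragment that starts the membrane attack complex. It was at 853, 811 and 780.3 CPM in FBXL5ΔDC livers and 592, 907 and 596 CPM in control livers at 6 h, and at 786, 985 and 924 CPM in FBXL5ΔDC livers and 567, 581 and 648 CPM in control livers at 0 h. At 0 h the FBXL5ΔDC libraries lay wholly above the control libraries, by 0.58 on the log2 scale (SE 0.16), while at 6 h all FBXL5ΔDC libraries lay below the highest control library and above the other two. Hc did not pass the test for 6 h against 0 h in FBXL5ΔDC livers (log2 -0.14, interval -0.49 to 0.21) or in control livers (0.22, interval -0.13 to 0.58). Its exons overlap those of the antisense gene Gm13449 by 76 bases, 1.2% of their length.

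C6 (ENSMUSG00000022181.16, chr15:4727175-4814967, plus strand), which binds C5b and starts the pore, was the member with the largest difference after treatment. It was at 152, 73.0 and 97.7 CPM in FBXL5ΔDC livers and 108, 153 and 66.6 CPM in control livers at 6 h, and at 180, 233 and 224 CPM in FBXL5ΔDC livers and 108, 101 and 157 CPM in control livers at 0 h. In FBXL5ΔDC livers every library at 6 h lay below every library at 0 h. In control livers the times overlapped, and the genotypes overlapped at 6 h.

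C6 fell in FBXL5ΔDC livers, to 108 ± 40.6 CPM at 6 h against 212 ± 28.3 CPM at 0 h (log2 -0.98, SE 0.32, 95% interval -1.67 to -0.29; edgeR, adjusted p = 0.0355). It was the 1 call among the 8 members tested in this comparison, in which 30.1% of all 17585 genes were called and 15.1% were called lower. This comparison used the untreated FBXL5ΔDC libraries, where C6 was 0.80 higher than in control livers at 0 h (log2, SE 0.32). These are among the libraries in which C9 was picked. The call was lost when any of 5 libraries was left out, FBXL5ΔDC replicates 2 and 3 at 6 h and replicates 1, 2 and 3 at 0 h, with adjusted p between 0.0507 and 0.116 and a log2 difference between -1.09 and -0.76. It was also lost with the replicate block (edgeR, adjusted p = 0.0637) and with no filter on low counts (0.0716). In control livers C6 did not pass the test (log2 -0.16, interval -0.85 to 0.52; edgeR, adjusted p = 0.827), and the difference between the genotypes' responses did not pass either (log2 -0.82, SE 0.44; edgeR, adjusted p = 0.431).

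The C8 trimer is encoded by 3 genes. C8a (ENSMUSG00000035031.15, chr4:104815679-104876398, minus strand), the alpha chain that inserts into the membrane, was at 395, 384 and 365 CPM in FBXL5ΔDC livers and 251, 621 and 341 CPM in control livers at 6 h, and at 465, 566 and 529 CPM in FBXL5ΔDC livers and 348, 283 and 456 CPM in control livers at 0 h. The FBXL5ΔDC libraries at 6 h lay within a narrow band wholly below those at 0 h, whereas the control libraries at 6 h included both the lowest and the highest level of the gene. Neither the difference in FBXL5ΔDC livers (log2 -0.45, interval -1.03 to 0.14; edgeR, adjusted p = 0.242) nor that between genotypes at 6 h (-0.08, interval -0.67 to 0.50) passed the test, though a fit to the 2 FBXL5ΔDC groups alone called the first (edgeR, adjusted p = 0.0112). The second took its direction from single control livers at 6 h, being 0.37 without replicate 2 and -0.34 without replicate 1.

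C8b (ENSMUSG00000029656.13, chr4:104766317-104804548, plus strand), the beta chain that docks onto C5b-7 and the close neighbour of C8a, was at 270.2, 267 and 237 CPM in FBXL5ΔDC livers and 174, 253 and 192 CPM in control livers at 6 h, and at 257, 339 and 275 CPM in FBXL5ΔDC livers and 181, 160.4 and 252 CPM in control livers at 0 h. At 0 h the groups were separate by a narrow margin, with the lowest FBXL5ΔDC library at 257 CPM and the highest control library at 252 CPM. The ratio of C8a to C8b levels in a library was 1.44 to 1.54 in FBXL5ΔDC and 1.44 to 2.45 in control livers at 6 h, and 1.67 to 1.92 in FBXL5ΔDC and 1.76 to 1.93 in control livers at 0 h.

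C8g (ENSMUSG00000015083.11, chr2:25498651-25501719, minus strand) encodes the gamma chain, a lipocalin and unlike the other chains in structure. It was at 267, 299 and 196 CPM in FBXL5ΔDC livers and 181, 186 and 237 CPM in control livers at 6 h, and at 249, 245 and 268 CPM in FBXL5ΔDC livers and 233, 243 and 242 CPM in control livers at 0 h. Untreated genotypes were nearly level, with a log2 difference of 0.09 (SE 0.15) that turned to -0.06 with library totals alone. At 6 h the difference of 0.33 (interval 0.00 to 0.67) did not pass the test (edgeR, adjusted p = 0.219), but it was called without replicate 3 of the control livers at 6 h (0.47; edgeR, adjusted p = 0.0379).

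C3 (ENSMUSG00000024164.15, chr17:57203970-57228136, minus strand), the protein on which all activation routes converge, was the most abundant member. It was at 8693, 9121 and 8133 CPM in FBXL5ΔDC livers and 7321, 8641 and 7628 CPM in control livers at 6 h, and at 6393, 9859 and 8585 CPM in FBXL5ΔDC livers and 7369, 6966 and 6722 CPM in control livers at 0 h. It was the one member whose untreated genotypes overlapped, since the lowest library of all was an FBXL5ΔDC library at 0 h. The response to treatment was 0.06 in FBXL5ΔDC livers (interval -0.27 to 0.39) and 0.16 in control livers (interval -0.16 to 0.49) on the log2 scale, and neither passed the test.

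Of the 8 acute phase genes listed, 6 were highest of the untreated FBXL5ΔDC livers in replicate 2, which was also the highest for C3, while Hamp was highest in replicate 1 and Fgb in replicate 3. Saa1 differed most between these libraries, with 40.9, 809 and 136 CPM in FBXL5ΔDC and 14.5, 20.4 and 119 CPM in control livers at 0 h. Orm1 was at 346, 622 and 406 CPM in FBXL5ΔDC and 269.6, 226 and 365 CPM in control livers at 0 h, highest in the same library. Hp was at 3663, 3808 and 3186 CPM in FBXL5ΔDC and 2322, 2961 and 2897 CPM in control livers at 0 h. The part of these genes in the levels of C3 and Cfb was not tested.

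Cfb (ENSMUSG00000090231.10, chr17:34856374-34862518, minus strand), the protease of the alternative pathway convertase, was at 1218, 1107 and 944 CPM in FBXL5ΔDC livers and 671, 935 and 943 CPM in control livers at 6 h, and at 1043, 1195 and 1218 CPM in FBXL5ΔDC livers and 861, 835 and 914 CPM in control livers at 0 h. FBXL5ΔDC libraries lay above control libraries at both times, though at 6 h only just, with 944 CPM in the lowest FBXL5ΔDC and 943 CPM in the highest control library. The difference at 6 h was 0.36 on the log2 scale (SE 0.15, interval 0.04 to 0.68) and did not pass the test (edgeR, adjusted p = 0.172). Times differed by -0.08 in FBXL5ΔDC and -0.03 in control livers. Cfb shares 2246 exon bases, 79.5% of its length, with the protein-coding gene Gm20547 on the same strand, which was listed at 0 in all 12 libraries, so how shared reads were assigned is uncertain.

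Cfi (ENSMUSG00000058952.12, chr3:129835884-129875332, plus strand), the protease that inactivates C3b and C4b, was at 651, 637 and 527 CPM in FBXL5ΔDC livers and 350.4, 607 and 486 CPM in control livers at 6 h, and at 505, 526 and 568 CPM in FBXL5ΔDC livers and 447, 429.7 and 466 CPM in control livers at 0 h. Its highest libraries were FBXL5ΔDC livers at 6 h, but those overlapped with control livers at 6 h. The log2 differences of 0.18 and 0.10 after treatment in FBXL5ΔDC and control livers, and of 0.33 between genotypes at 6 h (interval -0.04 to 0.70; edgeR, adjusted p = 0.271), did not pass the test.

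Taking the 9 genes as a list, all FBXL5ΔDC libraries lay above all control libraries at 0 h for 8 of 9, C3 being the exception, against 5.94% of all tested genes. This is the contrast on which C9 was picked, and nothing is read from it. No gene of the 17585 passed the edgeR test in that contrast (0%), 465 (2.64%) had an unadjusted p below 0.05, and DESeq2 called 9 higher and 7 lower. The separation depended on scaling. It held for the same 8 members with RLE size factors, against 5.86% of all genes. With upper quartile scaling it held for 5 members (C9, C6, Hc, Cfb and Cfi), against 5.56% of all genes. With library totals alone it held for 4 (C9, C6, Hc and Cfb). There 1.88% of all genes were so separated and the median of all genes was lower by 0.14.

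Most of the 9 genes differed little between 6 h and 0 h. In FBXL5ΔDC livers their log2 differences ran from -0.98 to 0.18, and the median size without regard to sign was 0.16 over the 8 members other than C9, against 0.61 over all tested genes and 0.35 over the 1244 genes averaging 100 CPM or more. All libraries at 6 h lay below those at 0 h for C9, C8a and C6, 3 of 9, against 24.5% of all genes. In control livers none of the 8 tested members was called by edgeR or DESeq2, against 10.6% of all genes in edgeR, and 0 had an unadjusted p below 0.05, against 24.7%. Their median size was 0.16, against 0.40 over all genes and 0.30 over the 1244 genes averaging 100 CPM or more. The 95% intervals of all 8 stayed within 1 log2 unit either way in control livers, against 42.3% of all genes. In FBXL5ΔDC livers those of 6 of 8 did, C6 and C8a being the others, against 34.3% of all genes. Both shares cover genes of every level, and no share was taken for genes as abundant as the members. Median sizes over the 9 soluble regulators of complement were 0.14 in FBXL5ΔDC and 0.18 in control livers. Those over the 6 hepatocyte markers were 0.22 and 0.19, so small sizes were not particular to the members.

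Between genotypes at 6 h none of the 9 was called by edgeR or DESeq2, against 5.86% of all genes in edgeR. An unadjusted p below 0.05 was found for 3 of 9, C9, C8g and Cfb, against 22.7% of all genes. Of the 9 differences, 7 were positive, with a median of 0.31 against -0.01 over all genes. The 6 hepatocyte markers had 6 positive differences and a median of 0.45. Of the 40 complement genes tested outside the members, 30 had positive differences, with a median of 0.25. The direction was thus not particular to the members. Among the 9, all FBXL5ΔDC libraries lay above all control libraries for Cfb alone, against 9.74% of all genes. In the test of whether the response differed between genotypes, none of the 8 members was called by edgeR or DESeq2, against 0.29% of all genes in edgeR, and 0 had an unadjusted p below 0.05, against 14.5%. Their differences ran from -0.82 for C6 to 0.25 for C8g.

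**Figure D2:**
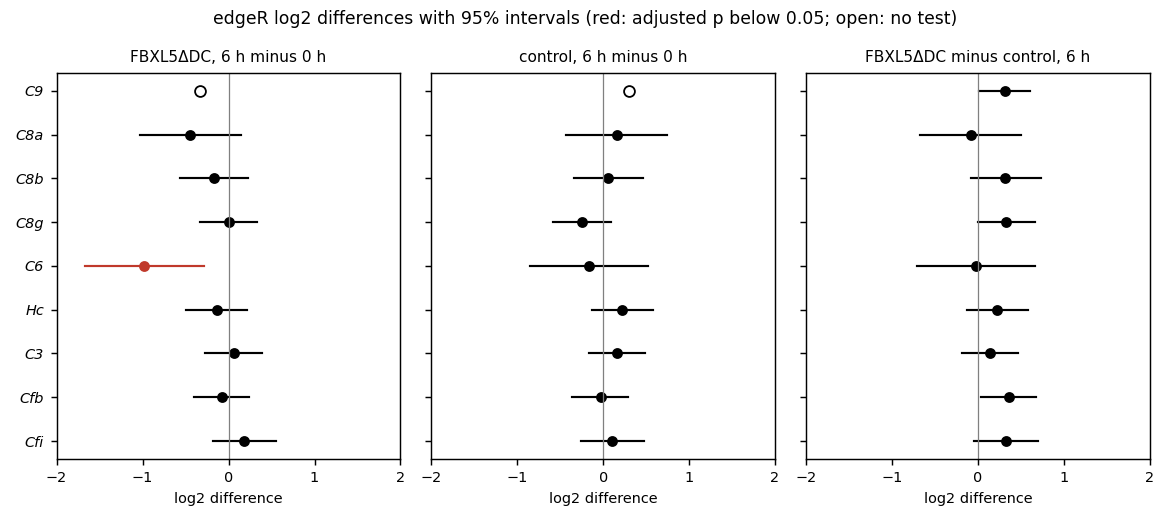
Log2 differences from edgeR with 95% intervals for the 9 genes (rows), for FBXL5ΔDC livers at 6 h minus 0 h, control livers at 6 h minus 0 h, and FBXL5ΔDC minus control livers at 6 h (panels from left to right); red marks an adjusted p below 0.05 and open points have no test. Only C6 in FBXL5ΔDC livers is red, at -0.98.

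The members tended to be high or low in the same libraries of a group. The share of all genes with the same order was not taken, so this is not read as particular to the members. Replicate 3 was the lowest for 8 of the 9 genes among FBXL5ΔDC livers at 6 h, and replicate 1 the lowest for 8 among those at 0 h. The former library also had the most detected genes of all (21405) and the largest scaling factor of its group (0.999). The part of such differences between libraries was not tested. Among control livers at 6 h, replicate 2 was the highest for 7 and replicate 1 the lowest for 8. For control livers at 0 h, replicate 3 was the highest for 7 and replicate 2 the lowest for 6. Levels summed over the 9 genes were 12993, 13145 and 11676 CPM in FBXL5ΔDC and 9946, 12736 and 10834 CPM in control livers at 6 h, for replicates 1, 2 and 3. At 0 h they were 10412, 14533 and 13140.1 CPM in FBXL5ΔDC and 10404, 9880 and 10161 CPM in control livers. C3 was the largest part of every sum, and the sums did not always follow the ranks. In FBXL5ΔDC livers at 6 h the sum was highest in replicate 2, while 7 members were highest in replicate 1.

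Marker sums of cell types moved in the same comparisons. The 6 hepatocyte markers summed to 107999 to 142508 CPM in FBXL5ΔDC and 67774 to 117150.4 CPM in control livers at 6 h, and to 80097 to 90269 CPM in FBXL5ΔDC and 73699 to 82374 CPM in control livers at 0 h. Alb, the albumin gene, made up 80392 to 111567 CPM of the sum in FBXL5ΔDC livers at 6 h and was the 1 marker of these called higher at 6 h in FBXL5ΔDC livers (log2 0.70; edgeR, adjusted p = 0.0284). The 9 Kupffer cell markers, all detected, summed to 209.9 to 360.1 CPM in FBXL5ΔDC and 178 to 220.4 CPM in control livers at 6 h, and to 161 to 214 CPM in FBXL5ΔDC and 133 to 168 CPM in control livers at 0 h. Endothelial markers, 4 of 5 called higher in FBXL5ΔDC livers after treatment, summed to 189 to 235 CPM in FBXL5ΔDC and 97.7 to 155 CPM in control livers at 6 h, and to 93.8 to 119 CPM in FBXL5ΔDC and 91.4 to 110.3 CPM in control livers at 0 h. Cholangiocyte markers, 4 of 4 called higher there, summed to 45 to 212 CPM in FBXL5ΔDC and 18 to 46.8 CPM in control livers at 6 h, and to 4.82 to 8.49 CPM in FBXL5ΔDC and 6.12 to 6.73 CPM in control livers at 0 h. After treatment in FBXL5ΔDC livers, 4 of 9 Kupffer, 3 of 5 stellate and 3 of 5 tested neutrophil markers were also called higher. None of the 6 dendritic cell or 4 red blood cell markers was called there. The share of all genes called higher in that comparison was 15%. The part of these marker shifts in the levels of the complement genes was not tested.

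Levels per kilobase of exon allow the genes to be ranked. C3 led in every group, with 1682 ± 96.4 CPM per kb in FBXL5ΔDC and 1529 ± 134 CPM per kb in control livers at 6 h, and 1609.8 ± 341 CPM per kb in FBXL5ΔDC and 1365 ± 63.4 CPM per kb in control livers at 0 h. Cfb followed, then Cfi, and C6 was last in every group, at 30.4 ± 11.4 CPM per kb in FBXL5ΔDC and 30.7 ± 12.1 CPM per kb in control livers at 6 h, and 59.6 ± 7.96 CPM per kb in FBXL5ΔDC and 34.3 ± 8.61 CPM per kb in control livers at 0 h.

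The place of C9 in this order differed between groups. In untreated FBXL5ΔDC livers it was 4th with 218 ± 10.5 CPM per kb, overlapping with Cfi above it and separate from C8g below it. In untreated control livers it was 5th with 114 ± 4.26 CPM per kb, below C8g at 160.1 ± 3.44 CPM per kb without overlap and overlapping with C8a. At 6 h C9 was 4th in both genotypes, with 174 ± 18.9 CPM per kb in FBXL5ΔDC and 140.1 ± 26.8 CPM per kb in control livers, and it overlapped with C8g in both. Hc, C8a and C8b held places 6 to 8, and neighbours among these 3 overlapped except Hc and C8a in FBXL5ΔDC livers at 6 h. C8b and C6 did not overlap in any group, and Cfb and Cfi overlapped in control livers at 6 h alone.

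**Figure D3:**
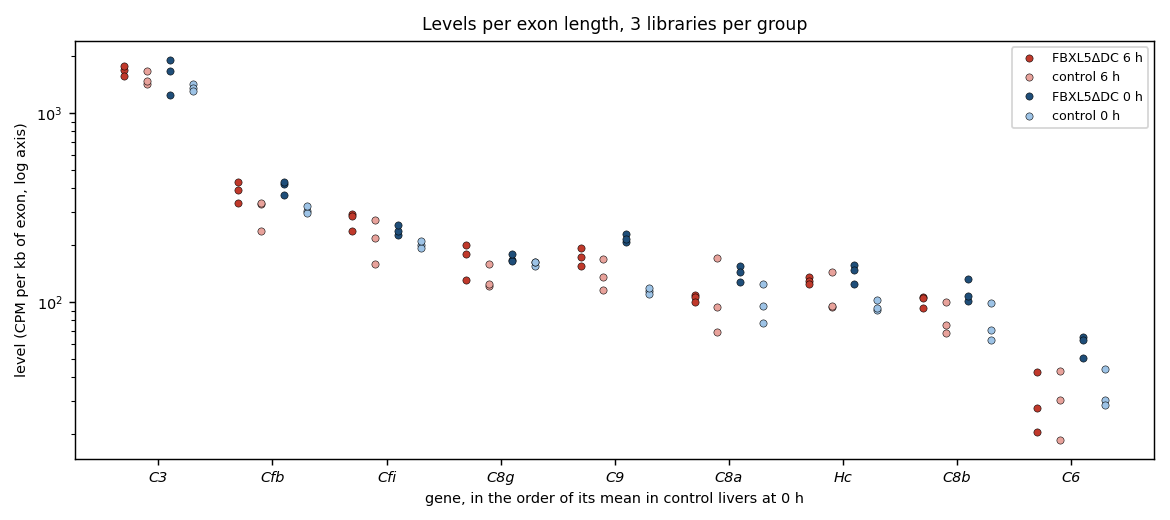
Level per kilobase of exon (log axis, CPM per kb) of the 9 genes, ordered by their mean in control livers at 0 h, with 1 point per library and the 4 groups side by side. C3 is the highest and C6 the lowest in each group, and C9 in FBXL5ΔDC livers at 0 h averages 218 CPM per kb.

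Ratios within each library set C9 against its partners in the pore. The ratio of C9 to C8a was 1.08 to 1.24 in FBXL5ΔDC and 0.696 to 1.19 in control livers at 6 h, and 1.04 to 1.15 in FBXL5ΔDC and 0.664 to 0.994 in control livers at 0 h. The ratio of C9 to C6 was 3.23 to 6.10 in FBXL5ΔDC and 2.75 to 5.18 in control livers at 6 h, and 2.45 to 2.97 in FBXL5ΔDC and 1.93 to 2.78 in control livers at 0 h. In FBXL5ΔDC livers all ratios of C9 to C6 at 6 h lay above those at 0 h, as C6 was lower at 6 h by more than C9. The ratios of C9 to C8a overlapped between the times. These ratios are of CPM and not per length.

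Among 7399 genes averaging 10 CPM or more, the genes whose level was most like that of C9 over the 12 libraries were Hc (Pearson r 0.924), Ces3b (0.895), C4b (0.889), C2 (0.883) and Serpina1e (0.872). Ces3b is a carboxylesterase, Serpina1e an alpha-1-antitrypsin, and C2 and C4b are components of the classical pathway convertase. C4b shares near-identical sequence with C4a, and Serpina1e with other members of its family, so their counts may be split. All points share their scaling and the 4 groups, and r is a description.

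The values behind this likeness had the same order of groups. C4b was at 1161, 1164 and 1125 CPM in FBXL5ΔDC and 786, 1162 and 1015 CPM in control livers at 6 h, and at 1302, 1653 and 1466 CPM in FBXL5ΔDC and 806, 1039 and 1021 CPM in control livers at 0 h. C2 was at 97.9, 84.7 and 85.4 CPM in FBXL5ΔDC and 68.4, 104 and 82.7 CPM in control livers at 6 h, and at 120, 113 and 115 CPM in FBXL5ΔDC and 73.1, 79.5 and 87.9 CPM in control livers at 0 h. As in C9, the untreated FBXL5ΔDC libraries of both genes lay above every control library at 0 h and, for C2 and C4b alike, above all FBXL5ΔDC libraries at 6 h.

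The closest genes of the other members were C2 for C8a (r 0.854), Cpb2, a carboxypeptidase that inactivates C5a and C3a, for C8b (0.914), Tmem59 for C8g (0.965), Naglu for C6 (0.899), C9 for Hc (0.924), Itih4 for C3 (0.867), Prdx4 for Cfb (0.952) and Vtn, the vitronectin gene, for Cfi (0.913). Among the members themselves, deviations from the group means were most alike for C9 and Cfi (r 0.92), C8a and Hc (0.89), Cfb and Cfi (0.89) and C8a and C8b (0.88). For C8g the same measure was 0.26 against C9, 0.01 against C8a and 0.08 against C8b.

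Outside the 9 genes, 44 genes of the complement system were listed and 40 were tested. In FBXL5ΔDC livers 10 rose and 7 fell after acetaminophen, against 15% and 15.1% of all genes. In control livers 2 rose and 2 fell, against 6.36% and 4.20%. Between genotypes at 6 h 3 were higher and none lower in FBXL5ΔDC livers, against 1.35% and 4.51%. None of the 40 was called by edgeR for a difference between the responses, where 7 had an unadjusted p below 0.05, against 14.5% of all genes, and DESeq2 called 2, against 3.99% of all genes. Of the 17 calls in FBXL5ΔDC livers, 11 remained whichever library was left out (Cd55, C4bp, Itgb2, Colec11, Mbl1, Colec10, Masp1, C1qb, C1ra, C1rb and C5ar1). Of the other 6, Cpn2 was kept in 6 of 12 fits that left out 1 library, and Cd59a and C1s1 in 7. Fcna was kept in 9, and C1qa and C1qc in 10. All 4 calls in control livers and all 3 between genotypes at 6 h were also lost without at least 1 library. C7, the remaining plasma component of the pore, did not pass 0.984 CPM in any library.

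Among recognition and initiating proteins of the classical pathway, the 3 genes of the C1q chains rose in FBXL5ΔDC livers and 3 of the 4 listed C1 protease genes fell, the 4th, C1s2, not passing the test (log2 -1.97; edgeR, adjusted p = 0.113). C1qb was at 48.8, 35.6 and 40.2 CPM at 6 h and 20.9, 21.7 and 17.0 CPM at 0 h in FBXL5ΔDC livers (log2 1.06; edgeR, adjusted p = 0.0012), and C1qa and C1qc rose by 0.81 and 0.71. In control livers C1qb was at 19.9, 22.2 and 29.4 CPM at 6 h and 14.3, 18.3 and 18.3 CPM at 0 h. That difference was not called by edgeR. C1qb was also higher in FBXL5ΔDC than in control livers at 6 h (log2 0.80; edgeR, adjusted p = 0.0253). C1ra, C1rb and C1s1 fell by 0.58, 0.58 and 0.34 on the log2 scale. C1rb also fell in control livers by 0.58 (edgeR, adjusted p = 0.012) and was higher in FBXL5ΔDC livers at 6 h by 0.49 (edgeR, adjusted p = 0.0376). The C1rb call between genotypes was kept in 1 of 12 fits leaving out 1 library and 3 of 7 other settings. That of C1qb was kept in 8 of 12 and 6 of 7. C1ra and C1rb are near-identical copies, so their counts may be split. The C1q genes are also among the 9 Kupffer cell markers, so the sums given above contain them. Of the other Kupffer cell markers only Marco was called higher in FBXL5ΔDC livers, though all 9 log2 differences were positive.

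In the lectin pathway, Colec10, Colec11 and Fcna, which encode sugar-binding recognition proteins, rose in FBXL5ΔDC livers by 1.60, 1.43 and 0.84 on the log2 scale (edgeR, adjusted p = 0.000311, 0.00187 and 0.0174). Colec10 was at 23.0, 26.6 and 24.6 CPM at 6 h and 10.1, 7.85 and 6.61 CPM at 0 h in these livers. In control livers it was at 11.2, 19.4 and 17.2 CPM at 6 h and 12.5, 10.1 and 10.8 CPM at 0 h. That difference was not called by edgeR. Mbl1, a mannose-binding lectin, fell in both genotypes, by 0.96 in FBXL5ΔDC and by 0.67 in control livers (edgeR, adjusted p = 0.000904 and 0.0177). Masp1, a protease of this pathway, rose by 0.50 in FBXL5ΔDC and by 0.53 in control livers (edgeR, adjusted p = 0.00917 and 0.0175). Colec11 is also a stellate cell marker. With Colec11 included, the 5 stellate cell markers summed to 194 to 231 CPM in FBXL5ΔDC and 107 to 170.4 CPM in control livers at 6 h, and to 54.6 to 101 CPM in FBXL5ΔDC and 86.9 to 128 CPM in control livers at 0 h. Their part in the levels of the lectin genes was not tested.

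Of the 9 soluble regulators tested, C4bp and Cpn2 fell in FBXL5ΔDC livers by 1.07 and 0.75 on the log2 scale (edgeR, adjusted p = 0.00196 and 0.0237). C4bp encodes the inhibitor that binds C4b and was at 196, 171 and 197 CPM at 6 h and 341, 440.2 and 402 CPM at 0 h in FBXL5ΔDC livers. In control livers it was at 261, 327 and 174 CPM at 6 h and 272, 286 and 358 CPM at 0 h. That difference was not called by edgeR. Cpn2 encodes the large subunit of carboxypeptidase N, which inactivates C3a and C5a. Its call was kept in 6 of 12 fits that left out 1 library, and that of C4bp in 12 of 12.

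Of the membrane regulators, Cd55, which speeds the decay of C3 convertases, was at 18.7, 15.5 and 14.2 CPM in FBXL5ΔDC and 8.90, 7.47 and 11.9 CPM in control livers at 6 h, and at 7.07, 6.32 and 5.91 CPM in FBXL5ΔDC and 11.2, 8.38 and 10.1 CPM in control livers at 0 h. It rose in FBXL5ΔDC livers (log2 1.32; edgeR, adjusted p = 0.000629) and was higher there than in control livers at 6 h (0.77; edgeR, adjusted p = 0.0408). The call between genotypes was kept in 1 of 12 fits that left out 1 library and in 3 of 7 other settings. The difference between the responses of 1.39 did not pass the test (edgeR, adjusted p = 0.0641), though DESeq2 called it. Cd59a, which blocks the addition of C9 to the pore, fell in FBXL5ΔDC livers by 0.46 (edgeR, adjusted p = 0.0305). In control livers its log2 difference was also -0.46, with all libraries at 6 h below those at 0 h, but did not pass the test (edgeR, adjusted p = 0.0622).

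Of the receptors, C5ar1, the C5a receptor of myeloid cells, rose in FBXL5ΔDC livers, to 3.27, 2.35 and 2.22 CPM at 6 h against 1.23, 0.661 and 0.268 CPM at 0 h (log2 1.86; edgeR, adjusted p = 0.0114). In control livers it was at 1.48, 1.5 and 2.57 CPM at 6 h against 0.902, 0.792 and 0.685 CPM at 0 h, which did not pass the test (log2 1.22; edgeR, adjusted p = 0.124), nor did the difference between the responses (0.64; edgeR, adjusted p = 0.715). Itgb2, the common beta chain of complement receptors 3 and 4, rose in both genotypes, by 1.48 in FBXL5ΔDC and by 0.99 in control livers (edgeR, adjusted p = 0.00277 and 0.0496). The call in control livers was lost in 6 of 7 other settings, among them RLE size factors (edgeR, adjusted p = 0.0527) and the replicate block (0.0776), and in 10 of 12 fits that left out 1 library. The 6 neutrophil markers summed to 2.95 to 9.78 CPM in FBXL5ΔDC and 2.66 to 3.46 CPM in control livers at 6 h, and to 0.730 to 1.87 CPM in FBXL5ΔDC and 0.954 to 1.53 CPM in control livers at 0 h. All 6 were detected in FBXL5ΔDC livers at 6 h, 5 in control livers at 6 h and in FBXL5ΔDC livers at 0 h, and 4 in control livers at 0 h. The part of these cells in the receptor levels was not tested.

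**Figure D4:**
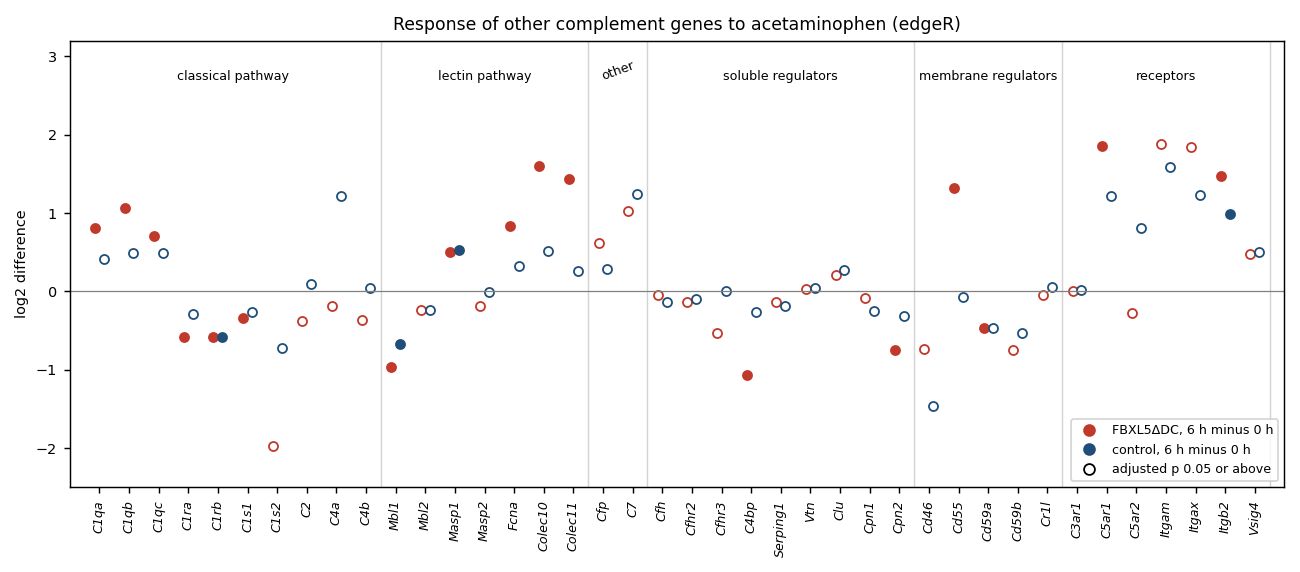
Log2 difference between 6 h and 0 h (vertical axis, edgeR) of the complement genes outside the 9 members, grouped by role along the horizontal axis, for FBXL5ΔDC livers (red) and control livers (blue); filled points have an adjusted p below 0.05. In FBXL5ΔDC livers 10 genes are filled above 0 and 7 below 0, in control livers 2 above and 2 below.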

How the data were processed

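Whole-liver RNA was sequenced in 12 libraries. Per the submitters' processing notes, Trim Galore 0.6.6 and HISAT2 2.2.1 were used with mm10; the counting program and strand setting are not given in the sources used here. The authors deposited estimated counts per gene as whole numbers, without normalisation. Of values from 1 to 40, 27.5% were multiples of 4, against 25% for an even spread, so the fragments behind a count are not known. The test was planned without naming the unit. Genes were filtered with filterByExpr, scaled by TMM and fitted in edgeR 4.0.16 (R 4.3.3; quasi-likelihood, robust, 4 groups, 8 residual degrees of freedom), and 17585 genes were tested with Benjamini-Hochberg adjustment over all of them and a threshold of 0.05. Alternatives included DESeq2 1.42.0. Intervals are 95% and unadjusted, from the log2 difference and its standard error. The script was tested on simulated data. Likeness used log2 CPM with a prior count of 2. No library was a copy of another. Gene models were GENCODE vM21, and exon length is the union of exons. The members, lists and tests were chosen with earlier results of these data known, and named pathway genes are up to 3 per list and direction with the largest called differences. No column was left out, and 1 planned pathway gene is not reported here.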

Additional observations from a re-analysis of the deposited data

How the results depend on the processing

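The fall of C6 in FBXL5ΔDC livers kept its direction throughout but not its call. Its log2 difference was -0.99 with no filter on low counts (edgeR, adjusted p = 0.0716) and also -0.99 with a replicate block (edgeR, adjusted p = 0.0637), so that 0 members were called lower in either setting, against 1. A fit to the 2 groups alone called 2, C6 and C8a. Leaving out 1 library at a time gave -1.32 to -0.76 for C6 and 0 to 1 members called lower, with the call kept in 7 of 12 fits. Replicate numbers were not taken to pair the samples. Of 18 pairs with the same number, 0 had deviations correlated above 0.1 (range -0.061 to 0.044). A weak pairing, or one limited to some genes, would not show in this measure. With the replicate block 1 pathway gene outside the members was called higher in control livers after treatment (2 without it) and 1 higher in FBXL5ΔDC than in control livers at 6 h (3 without it).

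Counts of called pathway genes outside the members moved as well, and the cause was not tested. In control livers, 1 was higher under upper quartile scaling, RLE size factors, library totals alone and no filter, 0 were higher or lower in the fit to 2 groups, and 4 were lower by DESeq2 (2 in edgeR). Between genotypes at 6 h, 1 was higher with library totals alone or no filter, 6 by DESeq2 and 0 in the fit to 2 groups. For the difference between responses DESeq2 called 2 higher. Leaving out 1 library gave 4 to 8 lower in FBXL5ΔDC livers, 0 to 3 higher and 1 to 3 lower in control livers, 0 to 8 higher and 0 to 2 lower between genotypes at 6 h, and 0 to 4 higher and 0 to 3 lower for the difference between responses. Members called higher between genotypes at 6 h were 0 to 1, the 1 being C8g without replicate 3 of the control livers at 6 h.

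Over all genes, calls in control livers were 1118 higher and 739 lower, 449 to 1361 and 314 to 843 without 1 library, 235 and 167 in the fit to 2 groups, and up to 1721 and 1222 in other settings. Between genotypes at 6 h they were 238 and 793, 35 to 1873 and 215 to 2376 without 1 library, and 0 to 752 and 6 to 1774 in other settings. For the difference between responses 6 and 45 became 0 to 1103 and 1 to 1430 without 1 library and 2 to 228 and 17 to 490 in other settings. At 0 h DESeq2 called 9 higher and 7 lower, against 0 and 0 in the main edgeR fit. Of 19 settings besides the main fit, 17 called 0 higher and 18 called 0 lower. Depth was ample for the members, whose mean counts per group were 6976 or more, so precision rests on the spread of 3 livers per group.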
